A study of Arabidopsis thaliana with 38 samples.

Results

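LEC1 (AT1G21970), L1L (AT5G47670), LEC2 (AT1G28300), FUS3 (AT3G26790) and ABI3 (AT3G24650) are 5 transcription factors that set the identity of the plant embryo. They were taken by locus identifier, without regard to their values, from the 27826 loci measured, and all 5 had a value on every array. Nuclear RNA of Arabidopsis thaliana embryos was hybridised to 38 one-colour arrays, 1 sample each, after hand pollination of the flowers. Nuclei came from INTACT, a method in which a biotin tag on the nuclear envelope, made in chosen cells, lets their nuclei be caught on beads. At 72 h after pollination, when embryos have 16 cells, there were 3 arrays of inner lower tier cells (ILT_16C) and 3 of whole embryos (EMB_16C). At 81 h, the early globular stage (EG), there were 4 arrays of vascular cells (VSC_EG), 4 of ground tissue (GSC_EG), 3 of suspensor (SUS_EG) and 4 of whole embryos (EMB_EG). At 100 h, the late globular stage (LG), there were 4 arrays of vascular cells (VSC_LG), 4 of whole embryos (EMB_LG) and 3 each of ground tissue (GSC_LG), suspensor (SUS_LG) and the cells that the labels call QC (QC_LG). The arrays of a group were pooled biological replicates, per the series design, so that p-values measure the spread between pools. The labels give no treatment for any group or accession of the plants, and the sources used here do not give the tagging transgenes or the promoters that drove them.

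LEC1 and L1L are variants of NF-YB, a histone-fold subunit that pairs with an NF-YC protein and then takes up an NF-YA protein to bind DNA at CCAAT boxes. LEC2, FUS3 and ABI3 carry a plant B3 domain that binds RY elements, and they act with bZIP factors on genes of seed storage protein and oil. The network raises its own members in the embryo, and after germination it is shut down by the VAL proteins, the chromatin remodeler PKL and Polycomb complexes.

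Values are log2 intensities, and a difference of 1 is a doubling. Tests are limma's moderated tests with all 38 arrays in 1 fit, adjusted by Benjamini-Hochberg over all loci, and a gene is called at an adjusted p under 0.05. Array medians lay between 2.47 and 2.71, and the mean of L1L (1.92) and of LEC2 (1.93) over the arrays was below the lower quartile of all loci (2.10), in the range where RMA values change little with the amount of RNA. As each value is relative to the array's other RNA, a change in the number of cells that make an RNA and a change in RNA per cell cannot be told apart in the whole-embryo and mixed groups. Single genes known to mark a tissue were called higher in 3 late groups, each against a group named below, while the marker lists of vascular cells and QC did not stand out. SCR (AT3G54220), a ground tissue regulator, had 5.14, 5.92 and 5.54 in GSC_LG and 2.47 to 3.72 in GSC_EG (2.41 higher, adjusted p = 0.00269). In GSC_LG against EMB_LG none of 5 ground tissue markers was called, beside 0.449% of all loci (2 had an unadjusted p under 0.05 in limma). In VSC_LG, SUS_LG and QC_LG against GSC_LG 1 of 5 was called each time, beside 1.24%, 1.24% and 3.09% of all loci. WOX5 (AT3G11260), a quiescent centre gene, was 2.02 higher in QC_LG than in SUS_LG (adjusted p = 0.0362) but overlapped with GSC_LG, whose array 2 read 4.28, and LOG4 (AT3G53450), a vascular cytokinin enzyme, 2.37 higher in VSC_LG than in EMB_LG (adjusted p = 0.0319). Over all 6 vascular markers the summed intensity was 67.66 to 142 in VSC_LG and 160.8 to 278.6 in GSC_LG. In VSC_LG against EMB_LG 1 of 6 was called, beside 0.787% of all loci. Over all 4 quiescent centre markers the mean log2 intensity was 2.78 in QC_LG, 3.28 in GSC_LG and 2.91 in EMB_LG, with none called in QC_LG against EMB_LG (1 had an unadjusted p under 0.05 in limma). GSC_EG did not stand out for SCR, which overlapped with EMB_EG. WOX8 (AT5G45980), a suspensor gene, had 3.46, 1.93 and 2.30 in SUS_LG, against 1.45 to 2.72 in EMB_LG (adjusted p = 0.673). None of 5 suspensor genes was called there, beside 0.967% of all loci, or had an unadjusted p under 0.05 in limma. The suspensor label of 100 h was thus not borne out by them, though so few genes cannot decide it. In SUS_EG against EMB_EG none of the 5 was called, beside 0.198% of all loci, and 2 had an unadjusted p under 0.05 in limma.

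**Figure D1:**
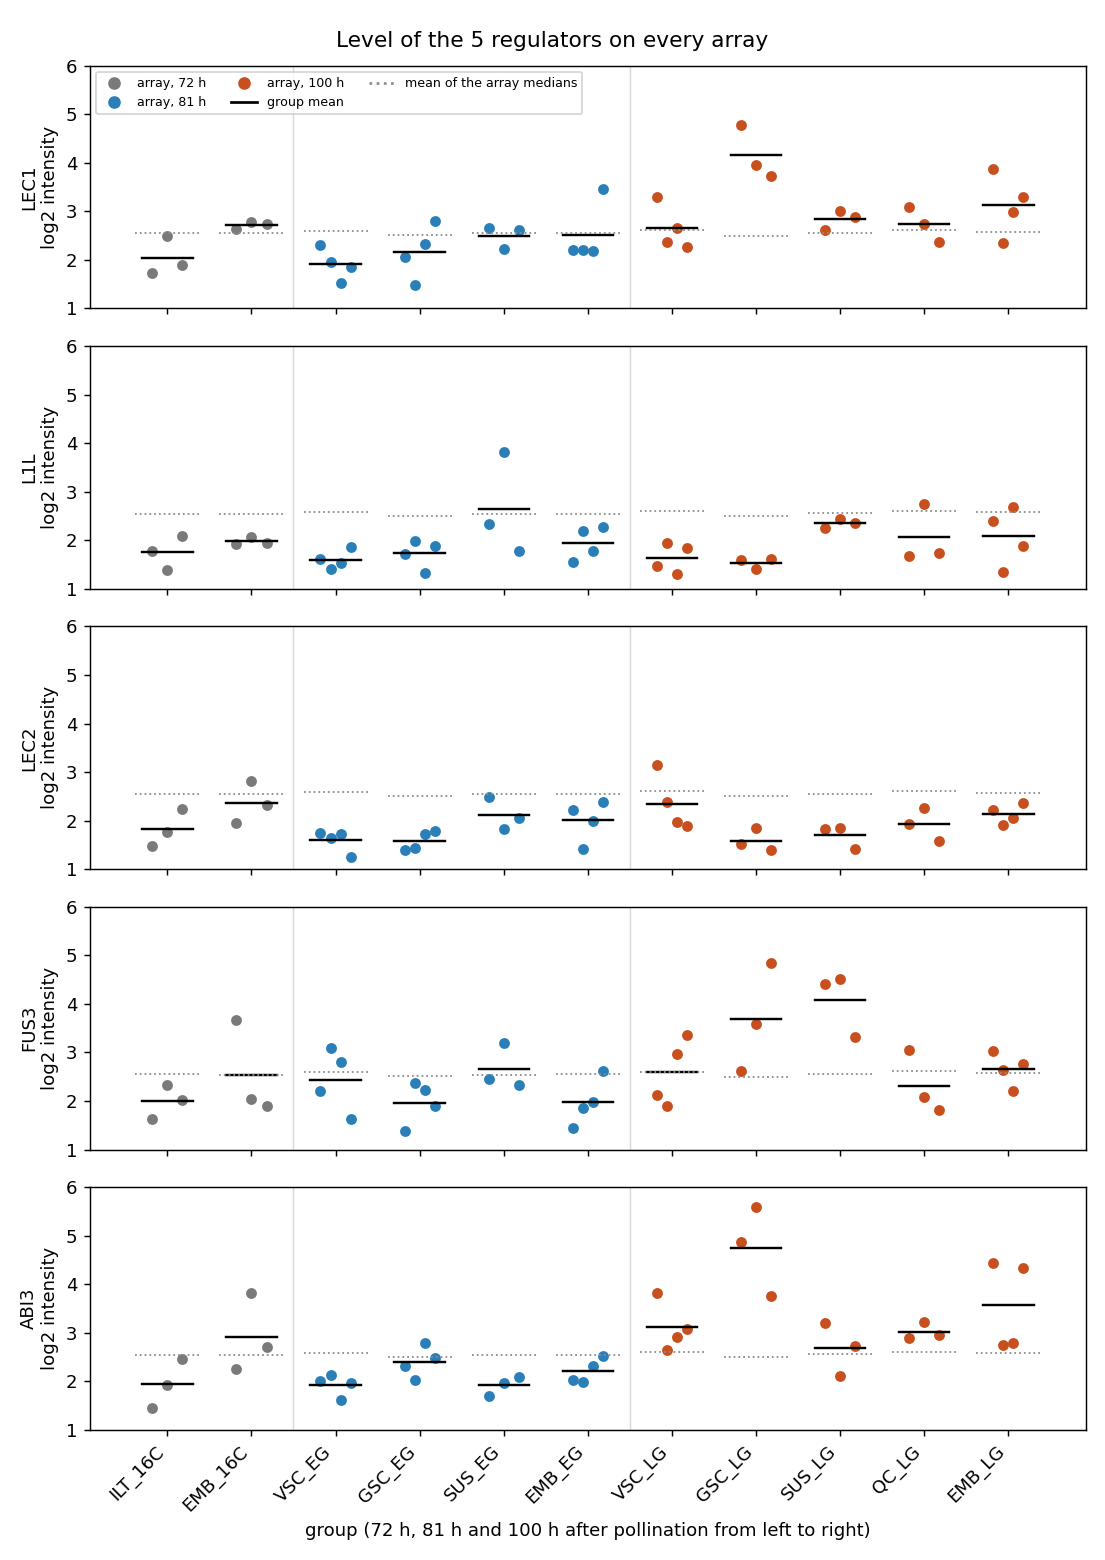
Log2 intensity (y axis) of LEC1, L1L, LEC2, FUS3 and ABI3 on each of the 38 arrays, by group (x axis); points are arrays, coloured by time, black lines are group means and dotted lines the mean of the array medians. LEC1 and ABI3 had their highest group means in GSC_LG (4.15 and 4.74), FUS3 in SUS_LG (4.08), and L1L and LEC2 lay below the array medians on most arrays.

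Over the 11 groups, the levels of LEC1, FUS3 and ABI3 differed and those of L1L and LEC2 did not pass the test. The limma F test gave adjusted p-values of 0.00299 for LEC1, 0.0243 for FUS3 and 0.000252 for ABI3, against 0.277 for L1L and 0.205 for LEC2. This is 3 of 5 genes, beside 9.56% of all loci. FUS3 rested on the suspensor arrays at 100 h: its adjusted p was 0.0742 without SUS_LG 1 and 0.0801 without SUS_LG 2. Among the 4 groups at 81 h, 0 of 5 genes passed the F test, beside 2.07% of all loci, and 1 of 5, L1L, had an unadjusted p under 0.05 (0.0261). Among the 5 groups at 100 h, LEC1 (adjusted p = 0.0472) and ABI3 (0.0227) passed, FUS3 did not (0.0673), and 3.76% of all loci passed. Their count was lower in 25 of 38 fits without a single array, at 0 without GSC_LG 2 and at 1 in the others of the 25, and it was 3 without QC_LG 1. It became 1 with quantile normalization or an intensity trend and 0 with each array's interquartile range as a covariate.

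LEC1 is the NF-YB subunit whose loss gives embryos with leaf-like cotyledons. At 72 h it read 1.72, 2.49 and 1.89 in ILT_16C, against 2.63, 2.79 and 2.73 in EMB_16C. The inner lower tier arrays all lay below those of the whole embryo, beside 6.15% of all loci. The difference of -0.68 (SE 0.38) did not pass the test (adjusted p = 0.576). At 81 h it read 2.30, 1.95, 1.53 and 1.85 in VSC_EG, 2.05, 1.49, 2.32 and 2.80 in GSC_EG, and 2.65, 2.21 and 2.61 in SUS_EG, against 2.20, 2.20, 2.18 and 3.45 in EMB_EG. All groups overlapped at that time, and 1 whole-embryo array stood well above the other 3. At 100 h it read 3.29, 2.38, 2.66 and 2.27 in VSC_LG, 4.77, 3.95 and 3.73 in GSC_LG, 2.62, 3.00 and 2.89 in SUS_LG and 3.09, 2.75 and 2.37 in QC_LG, against 3.87, 2.35, 2.98 and 3.29 in EMB_LG. The ground tissue arrays were above every vascular, suspensor and QC array, beside 7.64%, 9.12% and 10% of all loci. Of the whole embryo, 1 array reached into the ground tissue range. Ordered by group mean, GSC_LG (4.15 ± 0.551, SD, n = 3) came first, then EMB_LG, SUS_LG, QC_LG, EMB_16C, VSC_LG, EMB_EG, SUS_EG, GSC_EG and ILT_16C, with VSC_EG last (1.91 ± 0.318, SD, n = 4). No neighbours in this order differed beyond their spread, the widest step being 1.03 between GSC_LG and EMB_LG (adjusted p = 0.204).

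L1L, the closest relative of LEC1, is known for a part in storage and oil gene expression. It read 1.78, 1.38 and 2.09 in ILT_16C, against 1.93, 2.06 and 1.93 in EMB_16C, at 72 h. At 81 h it read 1.61, 1.40, 1.52 and 1.85 in VSC_EG, 1.72, 1.98, 1.33 and 1.88 in GSC_EG, and 2.34, 3.82 and 1.78 in SUS_EG, against 1.55, 2.18, 1.78 and 2.27 in EMB_EG. Only 1 suspensor array, at 3.82, lay well away from the rest, and the other 2 suspensor arrays overlapped with the whole embryo. At 100 h it read 1.46, 1.94, 1.30 and 1.84 in VSC_LG, 1.59, 1.40 and 1.61 in GSC_LG, 2.25, 2.43 and 2.36 in SUS_LG and 1.68, 2.75 and 1.74 in QC_LG, against 2.41, 1.34, 2.68 and 1.89 in EMB_LG. The 3 suspensor arrays lay close together and above all vascular and ground tissue arrays, beside 3.88% and 11% of all loci. The differences were 0.71 (SE 0.347, adjusted p = 0.703) for SUS_LG against VSC_LG and 0.81 (SE 0.371, adjusted p = 0.329) for SUS_LG against GSC_LG, so neither was called. By group mean the suspensor came first at both times it was sampled, with 2.65 ± 1.06 in SUS_EG and 2.35 ± 0.0921 in SUS_LG (SD, n = 3 each), and GSC_LG last with 1.54 ± 0.114 (SD, n = 3). No neighbours in the order differed beyond their spread.

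LEC2 is the B3 factor that, when made in leaves, is known to start somatic embryos and to switch on auxin synthesis. It read 1.47, 1.76 and 2.24 in ILT_16C, against 1.95, 2.81 and 2.32 in EMB_16C, at 72 h. At 81 h it read 1.74, 1.65, 1.73 and 1.25 in VSC_EG, 1.39, 1.44, 1.73 and 1.78 in GSC_EG, and 2.48, 1.84 and 2.05 in SUS_EG, against 2.23, 1.42, 1.99 and 2.39 in EMB_EG. The suspensor arrays lay above all vascular and ground tissue arrays at that time, beside 4.54% and 4.87% of all loci. The differences of 0.53 (adjusted p = 0.545) and 0.54 (adjusted p = 0.646) were not called. At 100 h it read 3.14, 2.38, 1.98 and 1.89 in VSC_LG, 1.52, 1.85 and 1.39 in GSC_LG, 1.82, 1.84 and 1.42 in SUS_LG and 1.94, 2.25 and 1.59 in QC_LG, against 2.21, 1.91, 2.05 and 2.37 in EMB_LG. The vascular arrays lay above all ground tissue and suspensor arrays there, beside 9.9% and 4.03% of all loci. They also lay above all vascular arrays of 81 h, beside 4.01%. None of these passed: VSC_LG against GSC_LG was 0.76 (SE 0.292, adjusted p = 0.178) and VSC_LG against VSC_EG 0.75 (SE 0.27, adjusted p = 0.179). The group means spanned 0.78, the smallest range of the 5 genes, with EMB_16C first (2.36 ± 0.432, SD, n = 3) and GSC_EG last (1.58 ± 0.2, SD, n = 4), and no neighbours differed beyond their spread.

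FUS3 is the B3 factor known for holding gibberellin low and abscisic acid high in the seed. It read 1.63, 2.33 and 2.02 in ILT_16C, against 3.67, 2.04 and 1.90 in EMB_16C, at 72 h. At 81 h it read 2.20, 3.09, 2.80 and 1.64 in VSC_EG, 1.38, 2.36, 2.23 and 1.89 in GSC_EG, and 2.45, 3.19 and 2.32 in SUS_EG, against 1.44, 1.86, 1.97 and 2.62 in EMB_EG. The groups overlapped at both times. At 100 h it read 2.12, 1.90, 2.97 and 3.36 in VSC_LG, 2.63, 3.59 and 4.84 in GSC_LG, 4.41, 4.51 and 3.32 in SUS_LG and 3.06, 2.08 and 1.80 in QC_LG, against 3.04, 2.63, 2.20 and 2.77 in EMB_LG. The 3 suspensor arrays lay above all QC and whole-embryo arrays, beside 5.52% and 5.01% of all loci. They lay above all suspensor arrays of 81 h too, beside 6.26%, while ground tissue spread over more than 2 units. SUS_LG against EMB_LG was 1.42 (SE 0.472, adjusted p = 0.177), QC_LG against SUS_LG was -1.76 (SE 0.504, adjusted p = 0.191) and SUS_LG against SUS_EG was 1.42 (SE 0.504, adjusted p = 0.367), none of them called. FUS3 was the gene of the 5 whose arrays varied most within groups, with a residual SD of 0.644. By group mean SUS_LG came first (4.08 ± 0.66), followed by GSC_LG (3.69 ± 1.11, SD, n = 3 each), and GSC_EG was last (1.96 ± 0.439, SD, n = 4), with no neighbours that differed beyond their spread.

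Beside the high FUS3 in SUS_LG, genes of the seed coat, the maternal tissue around the embryo, were high too. Their summed intensity, over 17 genes, was 1389 to 2491 in SUS_LG and 799.5 to 1309 in EMB_LG. SUS_LG had the highest group mean both of the seed coat genes and of FUS3. How the 2 levels relate over all groups was not tested. Mean log2 intensity of the seed coat genes was 5.33 in SUS_LG, 5.12 in SUS_EG and 5.08 in EMB_EG, where FUS3 averaged 4.08, 2.65 and 1.97. It was 4.18 in GSC_LG, where FUS3 averaged 3.69. Of these 17 genes 2 were called higher in SUS_LG than in EMB_LG, beside 0.539% of all loci. They were TT8 (AT4G09820) by 1.98 (adjusted p = 0.0265) and TT2 (AT5G35550) by 2.50 (adjusted p = 0.0407), both regulators of proanthocyanidin synthesis. Of the 17, 16 were above 0, with a median of 0.69 beside -0.02 over all loci. The 12 endosperm genes summed to 61.29 to 80.36 in SUS_LG and 53.65 to 63.88 in EMB_LG, and none was called (1 had an unadjusted p under 0.05 in limma). No defining marker was at 0, a value these arrays do not give. The part of seed coat RNA in the FUS3 level was not tested.

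ABI3 is the B3 factor through which abscisic acid acts on seed maturation and desiccation tolerance. It read 1.45, 1.93 and 2.47 in ILT_16C, against 2.25, 3.82 and 2.70 in EMB_16C, at 72 h. At 81 h it read 2.00, 2.14, 1.63 and 1.97 in VSC_EG, 2.31, 2.02, 2.79 and 2.48 in GSC_EG, and 1.70, 1.97 and 2.08 in SUS_EG, against 2.04, 2.00, 2.32 and 2.52 in EMB_EG. The groups of 81 h lay within little more than 1 unit of each other, and cell types overlapped with the whole embryo. At 100 h it read 3.83, 2.64, 2.91 and 3.07 in VSC_LG, 4.87, 5.60 and 3.75 in GSC_LG, 3.20, 2.11 and 2.73 in SUS_LG and 2.90, 3.21 and 2.95 in QC_LG, against 4.44, 2.76, 2.78 and 4.34 in EMB_LG. The ground tissue arrays were above all suspensor and QC arrays, beside 9.12% and 10% of all loci, and overlapped with the highest vascular array. The whole-embryo arrays fell into a pair near 4.4 and a pair near 2.8. By group mean GSC_LG came first (4.74 ± 0.928, SD, n = 3), then EMB_LG, VSC_LG, QC_LG, EMB_16C, SUS_LG, GSC_EG, EMB_EG, ILT_16C and VSC_EG, with SUS_EG last (1.92 ± 0.198, SD, n = 3). This range of 2.82 was the widest of the 5 genes, yet no neighbours in the order differed beyond their spread.

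Between 81 h and 100 h, LEC1 and ABI3 rose in ground tissue. LEC1 averaged 4.15 ± 0.551 in GSC_LG and 2.16 ± 0.548 in GSC_EG (SD, n = 3 and 4), a difference of 1.99 (SE 0.356, 95% interval 1.26 to 2.71, adjusted p = 0.00203), or 3.97-fold. ABI3 averaged 4.74 ± 0.928 in GSC_LG and 2.40 ± 0.319 in GSC_EG, a difference of 2.34 (SE 0.416, 95% interval 1.49 to 3.19, adjusted p = 0.00198), or 5.06-fold. FUS3 was 1.72 higher in GSC_LG (SE 0.472) and did not pass (adjusted p = 0.0539), while L1L (-0.19) and LEC2 (0.00) lay close to 0. These are 2 of 5 genes, beside 1.47% of all loci called in either direction. The arrays of GSC_LG lay wholly above those of GSC_EG for 3 of 5 genes, LEC1, FUS3 and ABI3, beside 6.03% of all loci. Both calls held without any single array, LEC1 between 1.68 and 2.20 and ABI3 between 1.91 and 2.83.

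In the other groups no regulator was called between these times, and 3 of 5 in vascular cells, 1 of 5 in the whole embryo and 1 of 5 in the suspensor had an unadjusted p under 0.05 in limma. VSC_LG against VSC_EG was 0.74 for LEC1 (adjusted p = 0.301) and 1.18 for ABI3 (adjusted p = 0.135), and the ABI3 arrays did not overlap. EMB_LG against EMB_EG was 0.61 for LEC1 (adjusted p = 0.658) and 1.36 for ABI3 (adjusted p = 0.194), again with no overlap for ABI3. SUS_LG against SUS_EG was 0.34 for LEC1 (adjusted p = 0.95) and 0.76 for ABI3 (adjusted p = 0.777), whose arrays did not overlap here either, if narrowly. The arrays of 100 h lay wholly above those of 81 h for 2 of 5 genes in vascular cells (LEC2 and ABI3), 1 of 5 in the whole embryo (ABI3) and 2 of 5 in the suspensor (FUS3 and ABI3), beside 4.01%, 2.45% and 6.26% of all loci. Beside these, 1.1%, 0.111% and 0.359% of all loci were called in vascular cells, whole embryo and suspensor. In the whole embryo no regulator was called in EMB_EG or in EMB_LG against EMB_16C, beside 0.187% and 0.237% of all loci, and none had an unadjusted p under 0.05 in limma. ABI3 averaged 2.92 in EMB_16C, 2.22 in EMB_EG and 3.58 in EMB_LG, and LEC1 2.72, 2.51 and 3.12.

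A comparison added after the data were seen took the mean of the vascular, ground tissue, suspensor and whole-embryo groups at 100 h against the same groups at 81 h, with 14 and 15 arrays. LEC1 was 0.92 higher at 100 h (SE 0.175, adjusted p = 0.00116), FUS3 1.00 higher (SE 0.232, adjusted p = 0.00921) and ABI3 1.41 higher (SE 0.204, adjusted p = 2.91e-05). Each of these 3 was higher at 100 h in all 4 groups. L1L differed by -0.08 (95% interval -0.43 to 0.27, adjusted p = 0.882) and LEC2 by 0.12 (95% interval -0.18 to 0.41, adjusted p = 0.771). Thus 3 of 5 genes were called higher, beside 1.65% of all loci, and 1 of 5 without ground tissue, beside 0.546%. Without the ground tissue groups ABI3 was still called, at 1.10 (SE 0.234, adjusted p = 0.00788), whereas LEC1, at 0.57 (adjusted p = 0.18), and FUS3, at 0.76 (adjusted p = 0.176), were not.

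**Figure D2:**
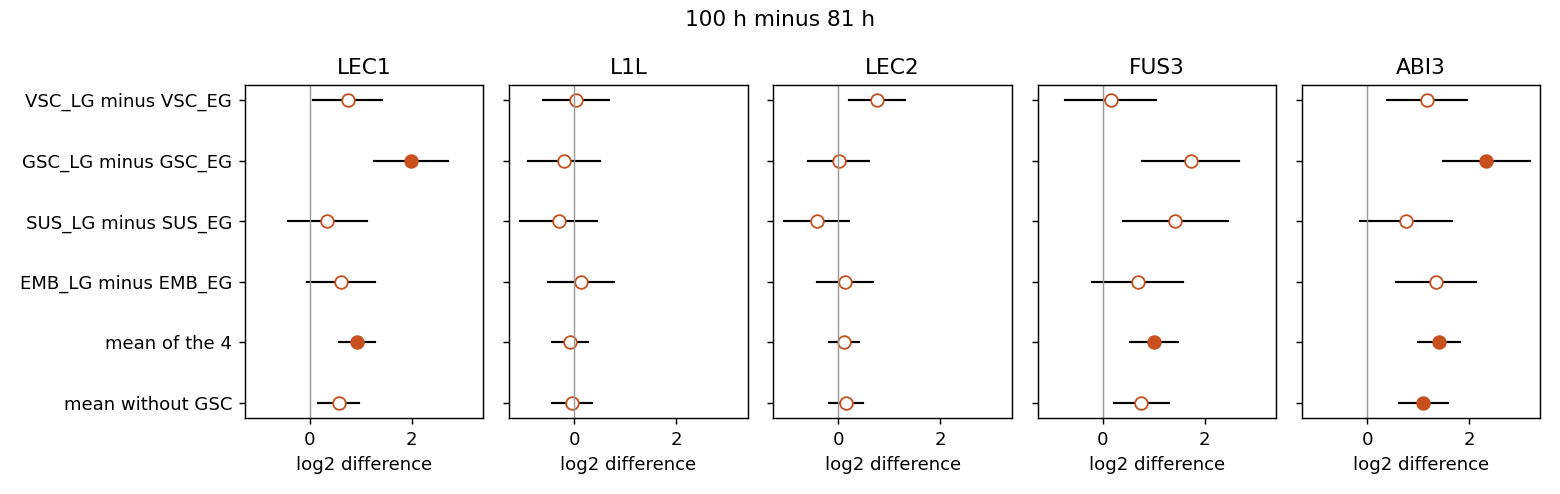
Log2 difference (x axis) at 100 h minus 81 h for the 5 genes in vascular cells (VSC), ground tissue (GSC), suspensor (SUS) and whole embryo (EMB), and for the mean of the 4 groups with and without ground tissue (y axis); bars are 95% intervals and filled points have an adjusted p under 0.05. LEC1 and ABI3 are filled in ground tissue (1.99 and 2.34), and ABI3 also in both means (1.41 and 1.10).

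Among cell types at 100 h, LEC1 and ABI3 were lower in other cell types than in ground tissue. LEC1 differed by -1.50 in VSC_LG against GSC_LG (SE 0.356, adjusted p = 0.0289) and by -1.42 in QC_LG against GSC_LG (SE 0.38, adjusted p = 0.0342), and by -1.32 in SUS_LG against GSC_LG, which did not pass (adjusted p = 0.0814). ABI3 differed by -1.63 in VSC_LG (SE 0.416, adjusted p = 0.0441), -2.06 in SUS_LG (SE 0.445, adjusted p = 0.0141) and -1.72 in QC_LG (SE 0.445, adjusted p = 0.0275), each against GSC_LG. These 3 comparisons share the GSC_LG arrays. Called were 2, 1 and 2 of 5 genes, beside 1.24% of all loci in VSC_LG against GSC_LG, 1.24% in SUS_LG against GSC_LG and 3.09% in QC_LG against GSC_LG. FUS3 did not pass in any of them, with -1.10 in VSC_LG (adjusted p = 0.23), 0.39 in SUS_LG (adjusted p = 0.785) and -1.37 in QC_LG (adjusted p = 0.128).

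Each of these 5 calls was lost without certain single arrays. Without GSC_LG 2, the array of the highest ABI3, none of the 5 was called: ABI3 was -1.20 for VSC_LG (adjusted p = 0.312), -1.63 for SUS_LG (0.151) and -1.29 for QC_LG (0.227), and LEC1 was -1.60 for VSC_LG (0.104) and -1.51 for QC_LG (0.0888). Without GSC_LG 1, the array of the highest LEC1, that of ABI3 in SUS_LG alone was kept, and LEC1 was -1.19 for VSC_LG (adjusted p = 0.149) and -1.10 for QC_LG (0.172). Without SUS_LG 2, ABI3 in SUS_LG was -1.77 (adjusted p = 0.0911). The calls of VSC_LG were lost too without VSC_LG 2, 3 or 4, and those of QC_LG without QC_LG 2 or 3. The interquartile range of an array averaged 1.79 in GSC_LG, the widest of the 11 groups, against 1.28 in VSC_LG, 1.41 in SUS_LG, 1.28 in QC_LG and 1.33 in EMB_LG; it was 1.73 in GSC_EG. With the interquartile range as a covariate, ABI3 in SUS_LG against GSC_LG was still called, and the LEC1 and ABI3 differences of VSC_LG and QC_LG kept their direction without passing.

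Against the whole embryo of the same time, none of the 5 regulators was called in any of 8 comparisons. Of these 40 tests 6 had an unadjusted p under 0.05 in limma. Of all loci, 0.449% were called in ILT_16C against EMB_16C, 2.15%, 1.12% and 0.198% in VSC_EG, GSC_EG and SUS_EG against EMB_EG, and 0.787%, 0.449%, 0.967% and 1.5% in VSC_LG, GSC_LG, SUS_LG and QC_LG against EMB_LG. The comparisons of one time share its whole-embryo arrays. The values furthest from 0 were 1.42 for FUS3 in SUS_LG, 1.16 for ABI3 (SE 0.416, adjusted p = 0.227), 1.03 for LEC1 (SE 0.356, adjusted p = 0.204) and 1.03 for FUS3 (SE 0.472, adjusted p = 0.355) in GSC_LG, all against EMB_LG. Whether a difference from the whole embryo itself changed between 81 h and 100 h was tested for vascular cells, ground tissue and suspensor, and 0 of 15 tests passed, beside 0%, 0% and 0.00719% of all loci. In limma 1 of the 15 had an unadjusted p under 0.05, LEC1 in ground tissue, which differed from the whole embryo by 1.03 at 100 h and by -0.34 at 81 h (1.37 apart, SE 0.485, adjusted p = 0.569). No regulator was called between cell types at 81 h, where 0.74% of all loci were called in VSC_EG against GSC_EG, 0.0575% in SUS_EG against VSC_EG and 0.0252% in SUS_EG against GSC_EG (0, 1 and 1 of 5 regulators had an unadjusted p under 0.05 in limma). Nor was one called in SUS_LG against VSC_LG, QC_LG against VSC_LG or QC_LG against SUS_LG, beside 0.0144%, 0.0683% and 0.101% of all loci (3, 0 and 1 of 5 had an unadjusted p under 0.05 in limma). In all 23 comparisons of 2 groups, 7 of 115 tests of the regulators were called (30 had an unadjusted p under 0.05 in limma). Beside them, 0.0144% to 3.09% of all loci were called per comparison. All 7 involved GSC_LG, in comparisons where 1.24% to 3.09% of all loci were called.

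**Figure D3:**
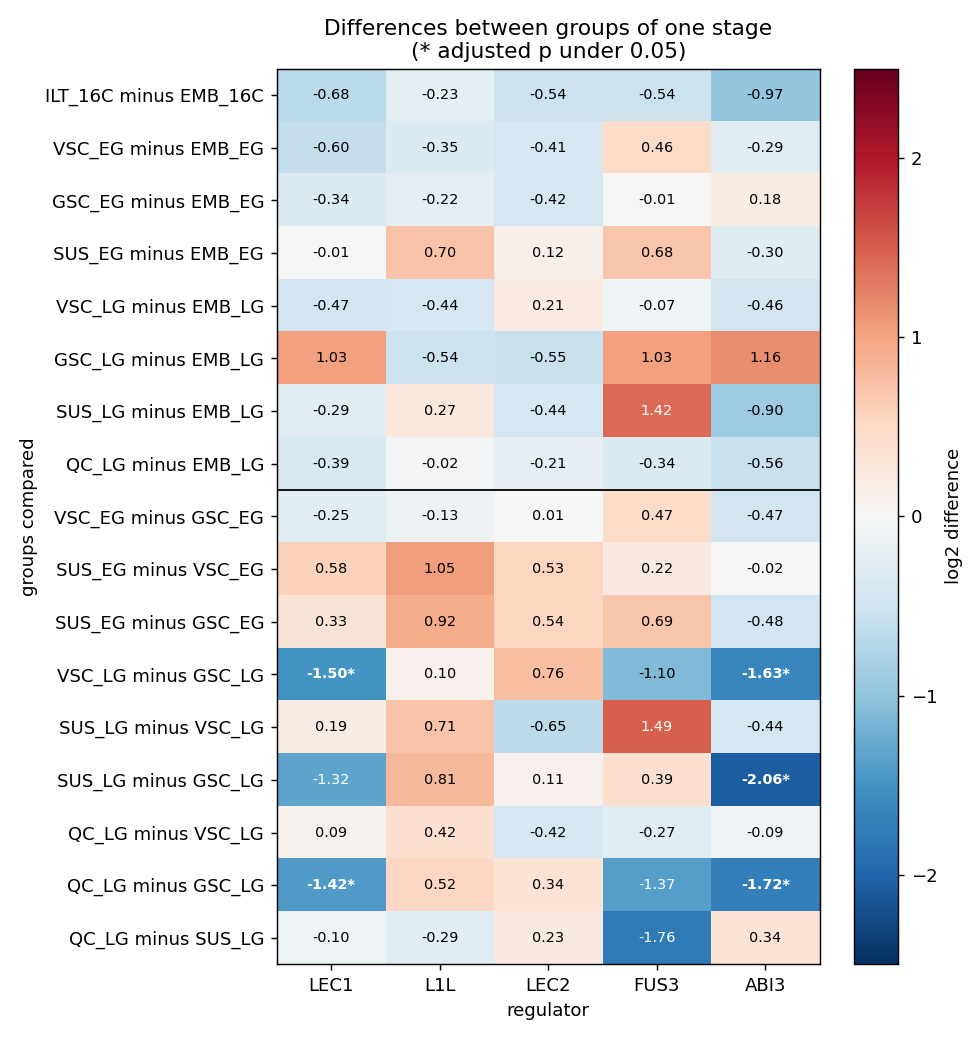
Log2 differences (colour and printed value) of the 5 genes (x axis) between groups of one time (y axis); rows above the line are cell types minus whole embryo, rows below it cell types minus cell types, and an asterisk marks an adjusted p under 0.05. The 5 marked values are LEC1 and ABI3 in VSC_LG and QC_LG minus GSC_LG and ABI3 in SUS_LG minus GSC_LG, between -1.42 and -2.06.

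LEC1 and ABI3 were the 2 regulators most alike over the groups. Over the 11 group means Pearson's r was 0.93 between LEC1 and ABI3, 0.67 between LEC1 and FUS3, 0.54 between FUS3 and ABI3, -0.04 between LEC1 and L1L and 0.01 between LEC2 and ABI3; Spearman's rho was 0.85, 0.68, 0.43, 0.22 and 0.15. Within groups, over the 38 arrays, r was 0.48 between LEC1 and ABI3, 0.56 between LEC2 and ABI3, -0.05 between LEC1 and FUS3 and -0.15 between FUS3 and ABI3. Thus FUS3 shared a direction with LEC1 and ABI3 between groups but not from array to array: in GSC_LG it was highest on the array that was lowest for both. Without GSC_LG, a choice made after the data were seen, r was 0.83 between LEC1 and ABI3, 0.50 between LEC1 and FUS3, 0.26 between FUS3 and ABI3, 0.50 between LEC1 and L1L and 0.50 between LEC2 and ABI3. It was -0.01 between L1L and ABI3 and -0.02 between LEC2 and FUS3, against -0.30 and -0.22 with GSC_LG. Without the 2 groups farthest from the median of LEC1, its r with ABI3 was 0.81, and without the 2 farthest from that of LEC2, its r with ABI3 was -0.14. These correlations describe points that share arrays and their normalization.

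**Figure D4:**
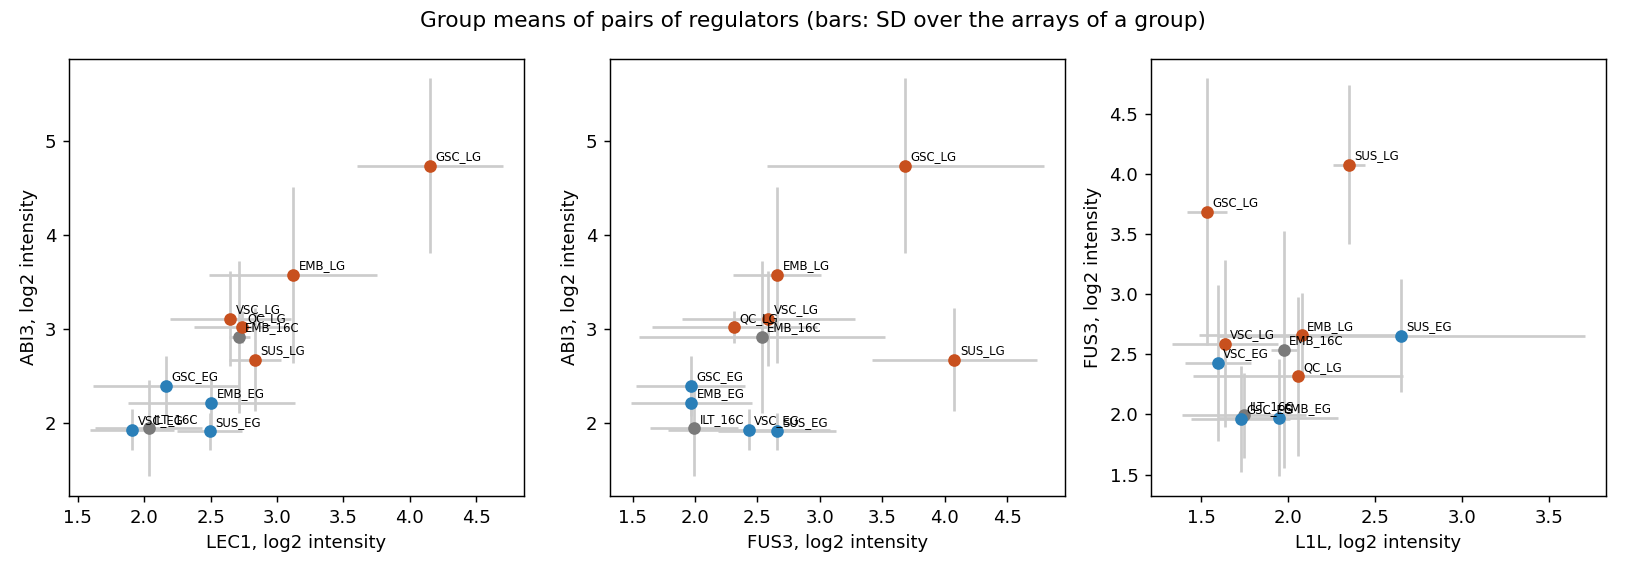
Group means, in log2 intensity, of ABI3 against LEC1, ABI3 against FUS3 and FUS3 against L1L; each point is 1 of the 11 groups, coloured by time (grey 72 h, blue 81 h, orange 100 h), with the SD over its arrays as bars. GSC_LG stands at the top right for LEC1 (4.15) and ABI3 (4.74), while SUS_LG is high in FUS3 (4.08) and not in ABI3 (2.68).

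The genes with a symbol whose values over the 38 arrays were most like each regulator's were named by Pearson's r. As each r was among the highest of many genes, a high value can arise without any relation, and none was tested. For ABI3 they were GRF2 (AT4G37740, r = 0.91), a growth-regulating factor, ABCG15 (AT3G21090, 0.86), a transporter of the ABC family, ERL2 (AT5G07180, 0.83), a receptor kinase of the ERECTA family, MRLK (AT3G56100, 0.82), a meristem receptor-like kinase, and AGF2 (AT3G55560, 0.81), an AT-hook protein. For LEC1 they were MRLK (0.82), ABI3 (0.80), ABCG15 (0.76), GRF2 (0.76) and PIN6 (AT1G77110, 0.73), an auxin carrier. Over the 11 group means, r with LEC1 was 0.97 for ABCG15 and r with ABI3 was 0.98 for both GRF2 and ERL2. All of these genes had their highest group mean in GSC_LG, as LEC1 and ABI3 did. The likeness was weaker for the other 3, whose nearest genes were HDA9 (AT3G44680, r = 0.61), a histone deacetylase, for FUS3, RBOHB (AT1G09090, r = 0.64), an NADPH oxidase, for L1L, and bHLH39 (AT3G56980, r = 0.61), an iron-response regulator, for LEC2.

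Among the partners of LEC1 and L1L, the NF-YA subunit NF-YA3 (AT1G72830) rose in ground tissue as LEC1 did. NF-YA3 read 4.78, 5.80 and 5.29 in GSC_LG, against 2.68, 2.19, 2.65 and 3.19 in GSC_EG, without overlap (2.61 higher, SE 0.538, adjusted p = 0.00644). It was also lower in VSC_LG (-2.46, adjusted p = 0.0201) and QC_LG (-2.14, adjusted p = 0.0347) than in GSC_LG. In GSC_LG against GSC_EG it was the only gene called of 18 NF-Y partners and other NF-YB genes, beside 1.47% of all loci. The median of the 18 was 0.06, beside -0.02 over all loci. NF-YB7 (AT2G13570), another NF-YB gene, was higher in QC_LG, with 3.33, 2.58 and 5.72, than in GSC_LG, with 2.35, 1.25 and 2.45 (1.86, adjusted p = 0.0389). Over the 4 groups at 100 h against 81 h, NF-YA3 (1.38, adjusted p = 0.00126) and NF-YA5 (AT1G54160, 1.05, adjusted p = 0.0349) were called higher, 2 of 18, beside 1.65% of all loci.

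The bZIP and ABI partners of the B3 factors gave no such call. Of 8, none was called in GSC_LG against GSC_EG, beside 1.47% of all loci (1 had an unadjusted p under 0.05 in limma). The median was -0.02, and AREB3 (AT3G56850), an ABRE-binding factor, was furthest from 0 at 1.23 (adjusted p = 0.183). Over the 4 groups, ABI5 (AT2G36270), the bZIP factor that acts with ABI3 in abscisic acid response, was lower at 100 h, averaging 2.94 at 100 h and 3.86 at 81 h (-0.93, SE 0.237, adjusted p = 0.0193). It was the only one of the 8 called there, beside 2.16% of all loci called lower.

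Of 8 embryogenic factors known to act with the regulators, 2 rose in ground tissue, beside 1.47% of all loci called in either direction. PLT5 (AT5G57390), an AP2 factor, read 5.61, 6.26 and 5.32 in GSC_LG, against 2.87, 2.91, 3.90 and 1.98 in GSC_EG (2.82 higher, SE 0.588, adjusted p = 0.00718). BBM (AT5G17430), an AP2 factor known to activate LEC1, LEC2, FUS3 and ABI3 when overproduced, read 4.18, 5.32 and 4.52 in GSC_LG, against 2.50, 1.94, 3.33 and 1.54 in GSC_EG (2.34 higher, SE 0.573, adjusted p = 0.0264). Neither overlapped between the times, beside 6.03% of all loci wholly higher in GSC_LG. PLT5 was also lower than in GSC_LG in VSC_LG (-2.22, adjusted p = 0.0498), SUS_LG (-3.00, adjusted p = 0.0122) and QC_LG (-2.58, adjusted p = 0.0181). MYB115 (AT5G40360), a MYB factor that can start embryos from vegetative cells, was higher in QC_LG than in GSC_LG by 1.21 (adjusted p = 0.045) and than in EMB_LG by 1.40 (adjusted p = 0.0174).

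The repressors of the regulators gave calls in some comparisons. Of 15, none was called in GSC_LG against GSC_EG, beside 1.47% of all loci (4 had an unadjusted p under 0.05 in limma). The median was 0.42, and CLF (AT2G23380), a Polycomb methyltransferase, was furthest from 0 at 1.13 (adjusted p = 0.18). VAL3 (AT4G21550), a B3 repressor, read 3.55, 4.00, 4.02 and 4.22 in GSC_EG, against 2.66, 2.92, 1.87 and 2.59 in EMB_EG (1.44 higher, SE 0.284, adjusted p = 0.00898), and it was lower in VSC_EG than in GSC_EG (-1.43, adjusted p = 0.015). EMF1 (AT5G11530), a Polycomb-associated protein, was also higher in GSC_EG than in EMB_EG (1.54, adjusted p = 0.0421). Called were 2 of 15 in GSC_EG against EMB_EG, beside 1.12% of all loci, and 1 of 15 in VSC_EG against GSC_EG, beside 0.74%. PKL (AT2G25170) was higher in GSC_LG, with 5.86, 5.90 and 5.04, than in EMB_LG, with 4.08, 3.17, 3.13 and 4.54 (1.87, SE 0.43, adjusted p = 0.0363), in the group with the highest LEC1 and ABI3. VAL2 (AT4G32010), a B3 repressor, was higher in VSC_LG than in VSC_EG (1.44, adjusted p = 0.0204) and over the 4 groups (0.64, adjusted p = 0.0273). PKL was 1 of 15 called in GSC_LG against EMB_LG, beside 0.449% of all loci. VAL2 was 1 of 15 each time, beside 1.1% in VSC_LG against VSC_EG and 1.65% called higher over the 4 groups.

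Seed storage and late embryogenesis genes, which the regulators are known to activate, gave no call where LEC1 and ABI3 rose in ground tissue. Of 18, none was called in GSC_LG against GSC_EG, beside 1.47% of all loci (1 had an unadjusted p under 0.05 in limma). Their median difference was -0.06, and OLEO4 (AT3G27660), an oleosin, was furthest from 0 at -0.85 (adjusted p = 0.393). Their mean log2 intensity, 2.39 in GSC_EG and 2.29 in GSC_LG, was below the range of the array medians (2.47 to 2.71). A rise in genes near the low range, where RMA values change little, could thus be missed. In VSC_LG against GSC_LG, where LEC1 and ABI3 were lower, all 18 lay above 0 with a median of 0.91, beside 0.11 over all loci. None of them was called, beside 1.24% of all loci (11 had an unadjusted p under 0.05 in limma). Mean log2 intensity was also higher in VSC_LG than in GSC_LG for the endosperm genes (2.22 and 1.97) and the hormone genes below (2.36 and 2.17). Other lists went the other way, among them fatty acid synthesis (3.73 and 4.75). The part of the wider array spread of GSC_LG (interquartile range 1.79, against 1.28 in VSC_LG) was not tested. SESA4 (AT4G27170), a 2S albumin, read 4.51, 8.64, 5.02 and 5.49 in VSC_LG, against 4.60, 1.83 and 2.42 in GSC_LG (2.96 higher, adjusted p = 0.0678). The summed intensity of the list was 120.2, 652.3, 666.5 and 151.2 on the VSC_LG arrays. Of these arrays, VSC_LG 1 was highest for LEC1, LEC2 and ABI3, VSC_LG 2 for L1L and VSC_LG 4 for FUS3. How the levels relate from array to array was not tested. Over the 4 groups at 100 h against 81 h, 15 of 18 lay above 0 with a median of 0.30, beside 0.02 over all loci. None was called, beside 3.81% of all loci called in either direction (4 had an unadjusted p under 0.05 in limma).

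Genes of fatty acid synthesis, which the regulators control through WRI1, were called in several comparisons at 100 h. FAB1 (AT1G74960; -1.97, adjusted p = 0.00604), KAS1 (AT5G46290; -2.22, adjusted p = 0.012), both condensing enzymes, MOD1 (AT2G05990; -1.99, adjusted p = 0.011), an enoyl reductase, and PKP-ALPHA (AT3G22960; -1.64, adjusted p = 0.0429), a plastid pyruvate kinase, were lower in QC_LG than in GSC_LG. These were 4 of 10, beside 3.09% of all loci called in either direction. The median of the 10 was -1.62, beside 0.12 over all loci. In VSC_LG against GSC_LG 2 of 10 were lower, PKP-ALPHA (-2.20, adjusted p = 0.00843) and FAB1 (-1.41, adjusted p = 0.0498), with a median of -1.41. Of all loci, 1.24% were called there. In GSC_LG against GSC_EG none of the 10 was called, beside 1.47% of all loci (5 had an unadjusted p under 0.05 in limma). The median was 0.85, with KAS1 at 1.70 (adjusted p = 0.0535). In SUS_LG against GSC_LG none was called, beside 1.24% of all loci (6 had an unadjusted p under 0.05 in limma). The median there was -1.04. Against EMB_LG, 2 of 10 were lower in QC_LG and 1 of 10 in VSC_LG, beside 1.5% and 0.787% of all loci. In each, 5 had an unadjusted p under 0.05 in limma. None was called in SUS_LG or GSC_LG, beside 0.967% and 0.449% of all loci (3 in each had an unadjusted p under 0.05 in limma). Their mean log2 intensity was 3.73 in VSC_LG, 4.75 in GSC_LG, 3.94 in SUS_LG, 3.57 in QC_LG and 4.55 in EMB_LG.

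Hormone genes linked to FUS3, LEC2 and ABI3 gave no call. Of 17 genes of gibberellin, abscisic acid and auxin metabolism, none passed in GSC_LG against GSC_EG, beside 1.47% of all loci. In limma 2 had an unadjusted p under 0.05, and the median was 0.13. ABA2 (AT1G52340), a dehydrogenase of abscisic acid synthesis, was furthest from 0 at -1.43 (adjusted p = 0.201). Their mean log2 intensity was low, 2.23 in GSC_EG and 2.17 in GSC_LG, near the range where RMA values change little. In SUS_LG against EMB_LG, where FUS3 was furthest from the whole embryo, none passed, beside 0.967% of all loci. None had an unadjusted p under 0.05 in limma there. GA3OX1 (AT1G15550), a gibberellin synthesis enzyme that FUS3 is known to hold down, was at -0.63 (adjusted p = 0.594). It was picked after its values were seen and averaged 2.10 over the 4 groups at 100 h, a low level.

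**Figure D5:**
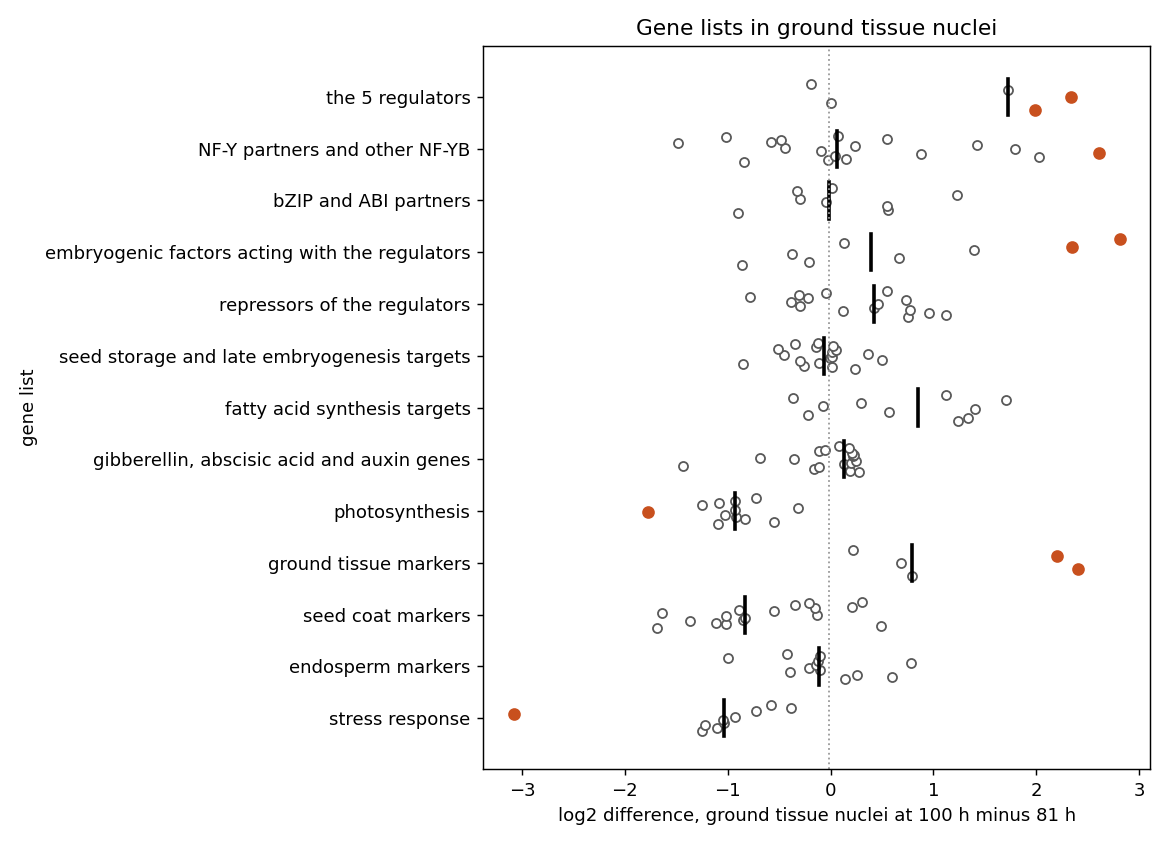
Log2 difference (x axis) in ground tissue at 100 h minus 81 h for each gene of 13 lists (y axis); filled points have an adjusted p under 0.05, black bars are list medians and the dotted line is the median of all loci (-0.02). LEC1, ABI3, NF-YA3, PLT5, BBM, SCR and JKD are called higher and LHCB2.2 and HSP17.6II lower, while the 18 storage genes lie around -0.06.

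Of the marker and stress lists in GSC_LG against GSC_EG, ground tissue genes gave 2 calls of 5, beside 1.47% of all loci. JKD (AT5G03150), a zinc finger factor of ground tissue, was 2.21 higher in GSC_LG than in GSC_EG (adjusted p = 0.00287), as SCR was. The seed coat genes summed to 635.2 to 821.4 in GSC_LG and 864.2 to 1722 in GSC_EG, with 0 of 17 called (7 had an unadjusted p under 0.05 in limma) and a median of -0.83, the sums being lower in GSC_LG without overlap. Endosperm genes summed to 59.62 to 63.87 in GSC_LG and 53.32 to 98.04 in GSC_EG. Stress genes summed to 348.3 to 646.1 in GSC_LG and 643.2 to 1138 in GSC_EG, with 1 of 10 called, HSP17.6II (AT5G12020; -3.08, adjusted p = 0.0148), a small heat shock protein. Photosynthesis genes lay below 0 for all 12, with a median of -0.93, and 1, LHCB2.2 (AT2G05070), a light-harvesting protein, was called (-1.77, adjusted p = 0.0205). No vascular, quiescent centre or suspensor marker was called in GSC_LG against GSC_EG, of 6, 4 and 5 (2, 2 and 1 had an unadjusted p under 0.05 in limma). In EMB_LG stress genes summed to 100.3 to 158.4. The part of stress, of seed coat RNA and of a change in the captured ground tissue in the rise of LEC1 and ABI3 was not tested.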

How the data were processed

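The deposited values are linear intensity, 1 per locus and array. RMA made them, per the submitters' processing notes. Its version is not given in the sources used here, nor is the definition of its probe sets. RMA corrects background, normalizes between arrays and summarises probes, so that differences in total RNA between nuclei are lost. Per the labels, RNA was amplified from small amounts and labelled with biotin. The deposited table held 27826 loci, of which 27241 matched the TAIR10.1 gene table and 10556 have a symbol, and all its columns belonged to a sample. No detection calls were used, and the number of arrays, 3 or 4 per group, limits the precision. No 2 arrays were duplicates; the highest correlation was 0.896 (EMB_EG 1 and 3).

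Values were taken to log2 with no constant added. limma (version 3.58.1, R 4.3.3) was fitted to 38 arrays and 11 group means with no covariate, 27 residual and 6.79 prior degrees of freedom. Tests were two-sided, adjusted by Benjamini-Hochberg over all loci. The regulators and 15 gene lists (166 entries, 165 on the table; HSD1 was not analysed here) were chosen with earlier results of these data known. All 5 regulators were named, and for each the 5 genes with a symbol of highest r over the arrays, of which those printed lead each list. From a list, called genes were named, at most 4 by smallest adjusted p, or else the gene furthest from 0; not every gene so chosen is printed. SCR, WOX5, LOG4 and WOX8 were named as markers, and GA3OX1 after its values were seen.

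The alternatives were quantile normalization, median centring, array weights, an intensity trend, a filter on loci below the 25th percentile, the array spread as a covariate, the arrays compared alone, the replicate number as a block, and each array left out. In simulated data of 27826 genes, GSC_LG against GSC_EG recovered 67 of 100 genes with a 4-fold and 8 of 100 with a 2-fold change, with 4 false calls. Figures were made in Python 3.11.15 with matplotlib 3.10.9.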

Additional observations from a re-analysis of the deposited data

Results flagged for a closer look

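LEC1 read 3.45 on whole-embryo array 4 of 81 h (EMB_EG 4), while the other 3 arrays of that group lay between 2.18 and 2.20. The gap to the nearest array was 0.982 of the range of the group, above Dixon's 95% critical value for 4 arrays. It was 1 of 25 sets of 4 arrays examined, and chance gives such a gap in about 5% of sets.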

How the results depend on the processing

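No result of the 5 regulators reversed. LEC1 and ABI3 in GSC_LG against GSC_EG were called under every alternative run. The 7 calls in 23 comparisons became 3 with quantile normalization, 3 with each array's interquartile range as a covariate and 2 with only the arrays compared, and 2 to 8 without single arrays (4 without GSC_LG 1, 2 without GSC_LG 2). For VSC_LG against GSC_LG, LEC1 was -1.38 (adjusted p = 0.068), -1.63 (0.132) and -1.50 (0.0811) under these 3 settings, and -1.71 to -1.19 without single arrays; ABI3 was -1.43 (0.0908), -1.60 (0.238) and -1.63 (0.109), and -2.12 to -1.20. For QC_LG against GSC_LG, LEC1 was -1.27 (0.0831), -1.54 (0.118) and -1.42 (0.165), and -1.63 to -1.10; ABI3 was -1.47 (0.0656), -1.69 (0.151) and -1.72 (0.16), and -2.21 to -1.29. For SUS_LG against GSC_LG, ABI3 was -2.06 (0.1) with only the arrays compared, and -2.55 to -1.63 without single arrays. The call of FUS3 over the 11 groups had adjusted p-values of 0.00879 to 0.0801 without single arrays. The 2 calls within a stage became 1 with quantile normalization, 1 with an intensity trend and 0 with the interquartile range, and 0 to 3 without single arrays, lower in 25 of 38 such fits. Over the 4 groups, leaving out ground tissue gave 0.57 for LEC1 (0.18) and 0.76 for FUS3 (0.176). With fewer arrays the fit has fewer degrees of freedom; the cause of the other losses was not tested. The filter on dim loci dropped L1L and LEC2, which have no value there. The deviations of arrays with the same replicate number had a median r of -0.0014 over 175 pairs, 19 of them over 0.1. For different numbers the median was -0.0023 over 480 pairs, 32 of them over 0.1. A median near 0 cannot exclude that the numbers pair some of the arrays. With the replicate block 7 of 115 tests were called, LEC1 in GSC_LG against GSC_EG was 2.07, and no call of the regulators changed in the comparisons above.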
